A study of Homo sapiens with 3 samples.

Results

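The collagen genes were followed across 3 arrays of HCT116 cells, a human colorectal cancer cell line. They were taken as the genes whose name on the array is COL, a number, A and a number, over probes that are not control spots. This gave 44 collagen genes with 64 probes, of 43317 genes with 58201 probes in all. Of the 44 genes, 29 had 1 probe and 15 had more. Of the 64 probes, 57 carried an accession found in RefSeq, and the RefSeq symbol differed from the name on the array for 0 of them. Antisense genes, pseudogenes and COL4A3BP, whose names only begin like a collagen's, were left out.

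The SMARCA4-KD1 and SMARCA4-KD2 arrays held total RNA of HCT116 cells transfected with siRNA against SMARCA4, the ATPase of the SWI/SNF chromatin remodelling complex also called BRG1, and the NC array held that of the control. All 3 were the same cell line in the same medium, with 1 array per condition, so neither knockdown can be tested by itself and the spread between replicate cultures is unknown. The sample titles and the siRNA protocol name SMARCA4 while the treatment field names PRMT1, and the knockdown number was taken from that field. Processed signals, in the scanner's units of intensity, are given below in the order SMARCA4-KD1, SMARCA4-KD2 and NC, and fold changes in the order SMARCA4-KD1 and SMARCA4-KD2, each against NC, unless the array is named. For SMARCA4 itself they were 3960, 4129 and 14026, which left 26.6% and 28.8% of the NC level after scaling. PRMT1 was not lower, with log2 fold changes of 0.27 and 0.37. The labels do not say which of the 2 siRNAs was used for which knockdown. Both knockdown arrays lay on the same slide and the NC array on another, so slide and knockdown cannot be told apart in any value below.

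Collagens are extracellular proteins built from 3 chains that wind into a triple helix, and each gene encodes 1 kind of chain. Fibrillar collagens form the banded fibrils of connective tissue, network-forming collagens form sheets such as the type IV network of basement membranes, and FACIT collagens bind along fibrils. Transmembrane collagens stay in the plasma membrane with their helix outside the cell, and the anchoring fibril collagen ties epithelium to the tissue under it. Epithelial cells make several of these chains, whereas the bulk of the fibrillar collagen in the gut wall comes from fibroblasts.

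The cells carried the marks of an epithelial line. A gene counts below as measured where a probe of it was well above background on at least 1 array, a flag that the extraction software sets on spots clearly brighter than their surroundings. Of 10 epithelial markers 8 were measured, among them EPCAM, KRT8, KRT18 and KRT19, while VIL1 and CEACAM5 were not. In both knockdowns 1 was at least 1.5-fold lower (CLDN4, at -0.67 and -0.68 on the log2 scale) and 1 higher (KRT20). Of all measured genes, 8.02% were that much lower and 6.35% that much higher in both. KRT20 had signals of 40.2, 50.8 and 17.5 and was not above background in NC, so its fold changes are limits. It passed the filter through the knockdown arrays alone, which favours higher values there. Of 10 fibroblast markers, 4 were measured (FBLN1, ACTA2, TAGLN and, in SMARCA4-KD1 only, POSTN), and DCN, LUM, PDGFRA, PDGFRB, THY1 and FAP were on no array. FBLN1 had signals of 1659, 1617 and 2259, and ACTA2 of 476.4, 585.1 and 315.0. The signal summed over the whole fibroblast list, dim members included, was 2268, 2311 and 2723. Of 6 endothelial markers 2 were measured, and the sum over all 6 was 87.9, 127.6 and 77.8. Of the 5 leukocyte markers on the array 4 were measured, and the sum over all 5 was 227.4, 183.1 and 195.3. Of the markers of these 3 cell types, 0 were at least 1.5-fold lower, and 0 higher, in both knockdowns. The part of other cell types in the values below was not tested.

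In HCT116 cells 26 of the 44 collagen genes were well above background on at least 1 array (23, 25 and 25 on the arrays in order), and 23 were on all 3. By family, 5 of 11 fibrillar, 7 of 9 network-forming, 7 of 10 FACIT and 2 of 5 beaded filament genes were measured. So were the anchoring fibril gene COL7A1, 2 of 4 transmembrane genes, 1 of 2 multiplexins and 1 of 2 others. The remaining 18 were on no array. They were COL1A2, COL2A1, COL3A1, COL5A3, COL11A1 and COL24A1 of the fibrillar group, COL8A1 and COL8A2 of the network-forming group, COL19A1, COL21A1 and COL22A1 of the FACIT group, COL6A3, COL6A5 and COL6A6 of the beaded filament group, the transmembrane COL23A1 and COL25A1, the multiplexin COL15A1, and COL26A1. Over the 22 probes of these genes the signal never passed 14.6, 14.6 and 14.7. The lowest signals called well above background on those arrays were 16.9, 16.2 and 17.7. A difference in these genes was not detectable at this signal.

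Several collagen chains were therefore measured without a chain they are known to pair with. COL1A1 was measured with signals of 477.4, 387.5 and 347.7, whereas COL1A2, its partner in type I collagen, was not above background over 10 spots on any array. COL6A1 and COL6A2 were on all arrays, and neither probe of COL6A3, the third chain of classical type VI collagen, was on any. COL5A1 and COL5A2 of type V collagen were on all arrays and COL5A3 was not. All 6 type IV genes were measured on NC.

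**Figure D1:**
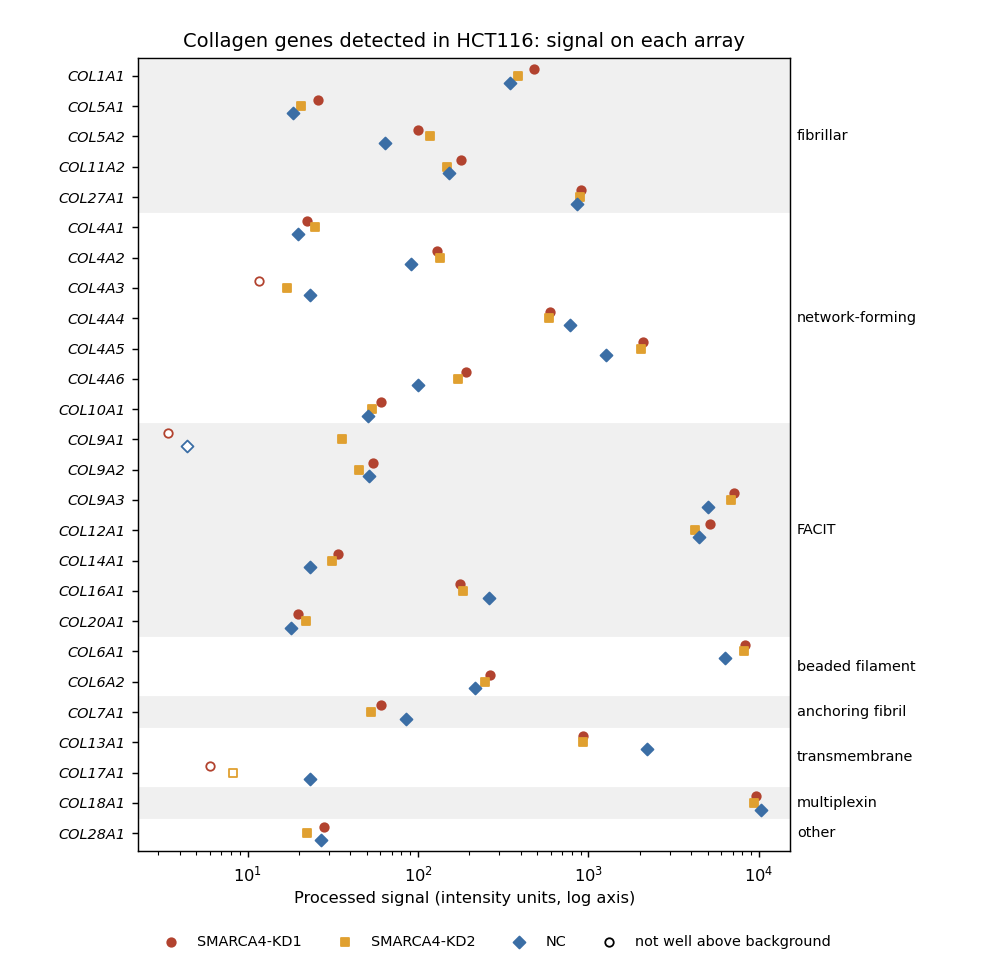
Processed signal (intensity units, log axis) of the probe that stands for each of the 26 measured collagen genes on each of the 3 arrays, in rows grouped by family; open symbols were not well above background. Signals are comparable within a row and not between rows, since each gene has its own probe; COL13A1 shows the knockdown arrays at 925 and 933 and NC at 2207.

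The question for each knockdown was which collagen genes differed from NC by at least 1.5-fold, the fold used in the study's methods. In SMARCA4-KD1, 2 of the 26 measured genes were at least 1.5-fold lower (COL13A1 and COL16A1) and 2 were at least 1.5-fold higher (COL4A5 and COL4A6). Over all 22620 measured genes, 12.3% were that much lower and 11.1% that much higher. In SMARCA4-KD2, 2 were lower (COL13A1 and COL7A1) and 4 higher (COL4A5, COL4A6, COL5A2 and COL9A1), against 9.73% and 10.1% of all genes. COL9A1 passed the filter through SMARCA4-KD2 alone, which favours a higher value there. Over the 23 genes with a probe well above background on all arrays, 3 were higher in SMARCA4-KD2. In both knockdowns 1 collagen gene was lower, COL13A1, and 2 were higher, COL4A5 and COL4A6, against 8.02% and 6.35% of all genes. These shares of the collagen genes, a few in 26, were near those of all genes. As the knockdowns were read against the same NC array, their values are not independent of each other.

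At any size of change, and over the genes on all 3 arrays, 13 of the 23 collagen genes were higher than NC in both knockdowns and 7 were lower, while 3 (COL11A2, COL12A1 and COL27A1) differed in direction. Of all 19501 such genes, 45.1% were higher and 39.9% lower in both. The median log2 fold change of the 26 measured collagen genes was 0.11 and 0.08, beside -0.00 and 0.02 over all measured genes. Over the 23 on all arrays the medians were 0.14 and 0.12, beside 0.02 and 0.04. The collagen genes thus had no common direction, and single genes lay on either side of NC.

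**Figure D2:**
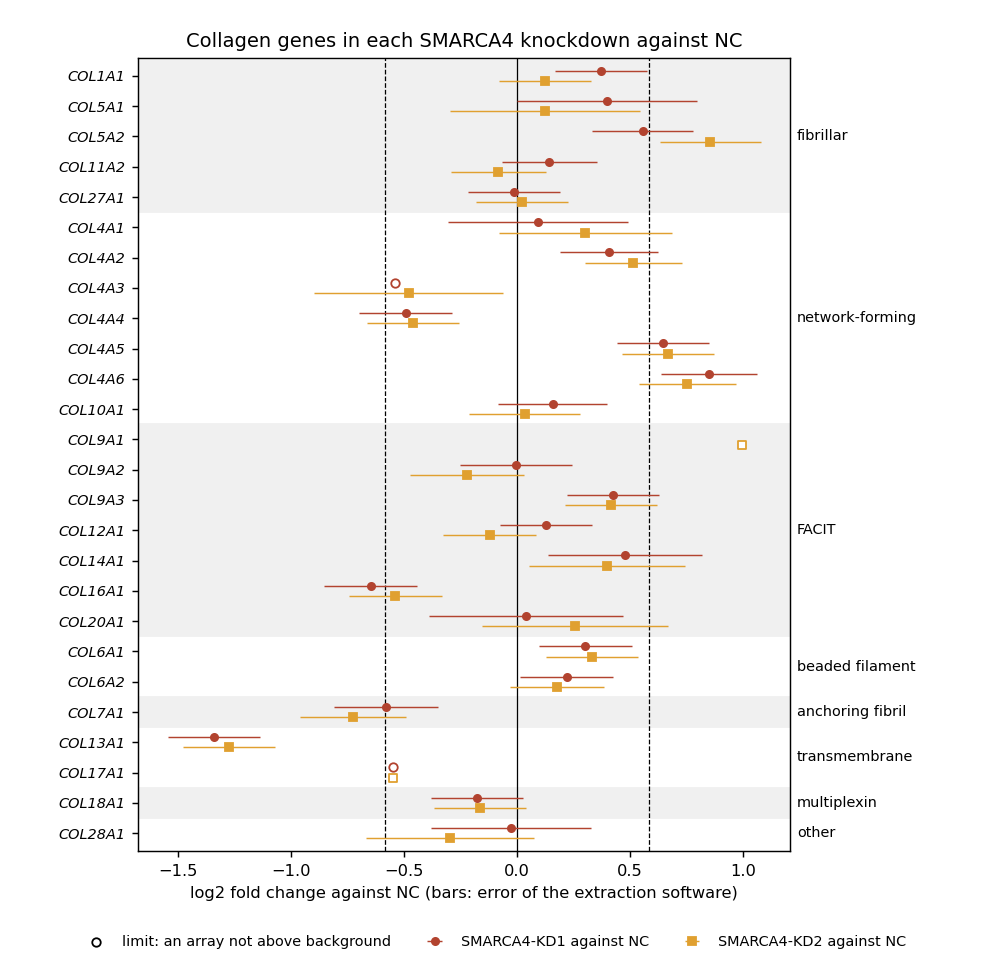
Log2 fold change of each measured collagen gene in SMARCA4-KD1 (circles) and SMARCA4-KD2 (squares) against NC, with bars for the error that the extraction software gives for the ratio of the 2 signals and dashed lines at 1.5-fold; open symbols are limits. Of the values that are no limits, those of COL13A1 lie farthest to the left, at -1.34 and -1.27, and COL4A5 and COL4A6 lie past the right-hand line in both knockdowns.

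Among the collagen genes measured on all 3 arrays the lowest against NC was COL13A1, which encodes the single chain of the transmembrane collagen XIII, found at sites of adhesion between cells and matrix. Its signal was 925, 933 and 2207. Both knockdown arrays were well below NC and differed little from each other. After scaling the level was 39.5% and 41.3% of NC, a log2 fold change of -1.34 ± 0.20 and -1.27 ± 0.20, where the error after ± is here and below that of the extraction software for 1 array against 1 array. The gene has 1 probe, on hg19 at chr10:71718811-71718870 on the plus strand, and whether it lies in an exon or a UTR was not looked up, as no annotation of that build was used here. Since RNA was taken from whole cultures, fewer cells that express a gene and less of its RNA per cell cannot be told apart, here or for the genes below.

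COL17A1, the other measured transmembrane collagen, is a part of the hemidesmosomes that fix epithelial cells to the basement membrane. It was well above background in NC alone, at 23.3, and at 6.0 and 8.2 in the knockdowns it was not. With the dim values raised to the floor, the limit was 1.46-fold lower in both SMARCA4-KD1 and SMARCA4-KD2, just short of 1.5-fold. The error of the software for the ratio of the signals was 0.91 and 0.67 on the log2 scale. The gene passed the filter through NC alone, which favours lower values in the knockdowns. COL7A1, which encodes the chain of anchoring fibrils, had signals of 60.6, 52.8 and 85.4. The log2 fold changes were -0.58 ± 0.23 and -0.73 ± 0.23, of which the first lay just under the 1.5-fold line and the second beyond it. With another background correction (normexp on the mean and background signals) they were -0.33 and -0.34, both short of 1.5-fold. COL17A1 was then at -0.33 and -0.27, smaller changes than the limits above. This correction added an offset of 50 to each signal, which by itself draws the folds of dim probes toward 0, here and wherever normexp is named below. COL18A1, the multiplexin whose C-terminal fragment is endostatin, had signals of 9622, 9361 and 10253 and log2 fold changes of -0.18 ± 0.20 and -0.16 ± 0.20, within the error of the software.

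Type IV collagen, the scaffold of basement membranes, is encoded by 6 genes that lie in pairs, head to head, each pair read outwards from a shared stretch of DNA. In RefSeq on GRCh38.p14 the start sites of COL4A1 and COL4A2 on chromosome 13 lay 127 bases apart, those of COL4A4 and COL4A3 on chromosome 2 lay 419 bases apart, and those of COL4A6 and COL4A5 on chromosome X lay 380 bases apart. In each pair both genes had log2 fold changes of the same sign in both knockdowns, except that COL4A1 in SMARCA4-KD1 turned from 0.09 to -0.10 with normexp. COL4A1 was within the error of the software in both knockdowns. COL4A3 was a limit in SMARCA4-KD1 and at -0.48 ± 0.42 in SMARCA4-KD2. Of all genes on all 3 arrays, 45.1% were higher and 39.9% lower in both knockdowns. Whether the genes of a pair move together was not tested. Promoter windows of 300 bases, from 250 before to 50 after the start site, are shown for COL4A6 and COL4A5, the genes at least 1.5-fold higher in both knockdowns, and for COL4A4 and COL4A3, whose log2 fold changes were negative. Each is written 5′ to 3′ along its own gene, and the capitals mark matches on either strand to GGGCGG (the GC box), CCAAT (the CCAAT box), TATAAA (the TATA box) or TGANTCA (an AP-1 motif). The COL4A6 window is chrX:108439409-108439708 on the minus strand and the COL4A5 window chrX:108439588-108439887 on the plus strand, so they share 121 bases.
COL4A6: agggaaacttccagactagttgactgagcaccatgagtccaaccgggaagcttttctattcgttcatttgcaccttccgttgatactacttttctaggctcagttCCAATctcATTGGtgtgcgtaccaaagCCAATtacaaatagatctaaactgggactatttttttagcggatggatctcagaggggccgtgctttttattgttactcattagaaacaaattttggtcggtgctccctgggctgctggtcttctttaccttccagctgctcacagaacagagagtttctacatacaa
COL4A5: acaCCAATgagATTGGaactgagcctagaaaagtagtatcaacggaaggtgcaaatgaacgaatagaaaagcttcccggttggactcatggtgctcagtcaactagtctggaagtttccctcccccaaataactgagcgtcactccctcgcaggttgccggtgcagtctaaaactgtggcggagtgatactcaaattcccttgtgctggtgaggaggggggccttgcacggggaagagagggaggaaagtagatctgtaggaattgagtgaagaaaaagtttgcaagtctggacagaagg
The COL4A4 window is chr2:227164156-227164455 on the minus strand and the COL4A3 window chr2:227164374-227164673 on the plus strand, and they share 82 bases.
COL4A4: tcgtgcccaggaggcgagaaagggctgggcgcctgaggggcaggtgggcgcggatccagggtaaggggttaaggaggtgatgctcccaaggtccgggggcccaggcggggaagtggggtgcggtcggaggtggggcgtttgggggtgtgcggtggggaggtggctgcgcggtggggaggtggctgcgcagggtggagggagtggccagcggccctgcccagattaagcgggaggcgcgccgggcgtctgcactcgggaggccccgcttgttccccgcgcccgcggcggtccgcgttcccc
COL4A3: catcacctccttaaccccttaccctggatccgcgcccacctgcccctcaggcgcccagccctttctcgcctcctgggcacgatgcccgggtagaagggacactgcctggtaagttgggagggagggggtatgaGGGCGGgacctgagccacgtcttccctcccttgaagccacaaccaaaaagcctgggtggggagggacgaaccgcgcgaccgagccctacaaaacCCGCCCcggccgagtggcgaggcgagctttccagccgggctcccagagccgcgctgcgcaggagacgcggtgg
A CCAAT box was found in both orientations in the stretch that COL4A6 and COL4A5 share, and a further one in the COL4A6 window alone. The COL4A3 window held GGGCGG once in each orientation and the COL4A4 window held none of the motifs. The windows of COL4A1 and COL4A2, which share 226 bases, each held a GC box and a CCAAT box. COL4A6 has a second start site in RefSeq, farther from COL4A5. Which start was used in these cells cannot be read from the arrays.

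COL4A5 had signals of 2092, 2047 and 1261, with both knockdown arrays above NC. Its log2 fold changes were 0.64 ± 0.20 and 0.67 ± 0.20, or 1.56-fold and 1.59-fold higher. COL4A6 had signals of 190.3, 171.5 and 99.5, again with both knockdown arrays above NC. Its log2 fold changes were 0.85 ± 0.21 and 0.75 ± 0.21, or 1.80-fold and 1.69-fold. On hg19 the COL4A5 probe lies at chrX:107940580-107940639 on the plus strand and the COL4A6 probe at chrX:107399050-107399109 on the minus strand. A second COL4A6 probe, at chrX:107512310-107512369, was not above background on any array, so the COL4A6 values rest on 1 probe. With normexp COL4A5 was at 0.57 and 0.59 and COL4A6 at 0.59 and 0.54, so neither was past 1.5-fold in both knockdowns.

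COL4A4 had signals of 591.1, 583.1 and 784.1. Its log2 fold changes were -0.49 ± 0.20 and -0.46 ± 0.20, short of 1.5-fold. COL4A3 had signals of 11.7, 16.9 and 23.1, of which the first was not above background. Its limit was 1.45-fold lower in SMARCA4-KD1, where the error of the software was 0.53 on the log2 scale. Its log2 fold change in SMARCA4-KD2 was -0.48 ± 0.42. COL4A3, COL4A4 and COL4A5 encode the chains of the network known from the kidney's filter, and in these cells the log2 fold changes of COL4A5 were positive while those of its partners were negative.

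COL4A1 and COL4A2 encode the chains of the type IV network that most basement membranes hold. COL4A1 was close to background, with signals of 22.4, 25.0 and 19.8, and its log2 fold changes of 0.09 ± 0.40 and 0.30 ± 0.38 were within the error. COL4A2 had signals of 128.9, 133.8 and 91.6. Its log2 fold changes of 0.41 ± 0.22 and 0.51 ± 0.22 were larger than the error and short of 1.5-fold.

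**Figure D3:**
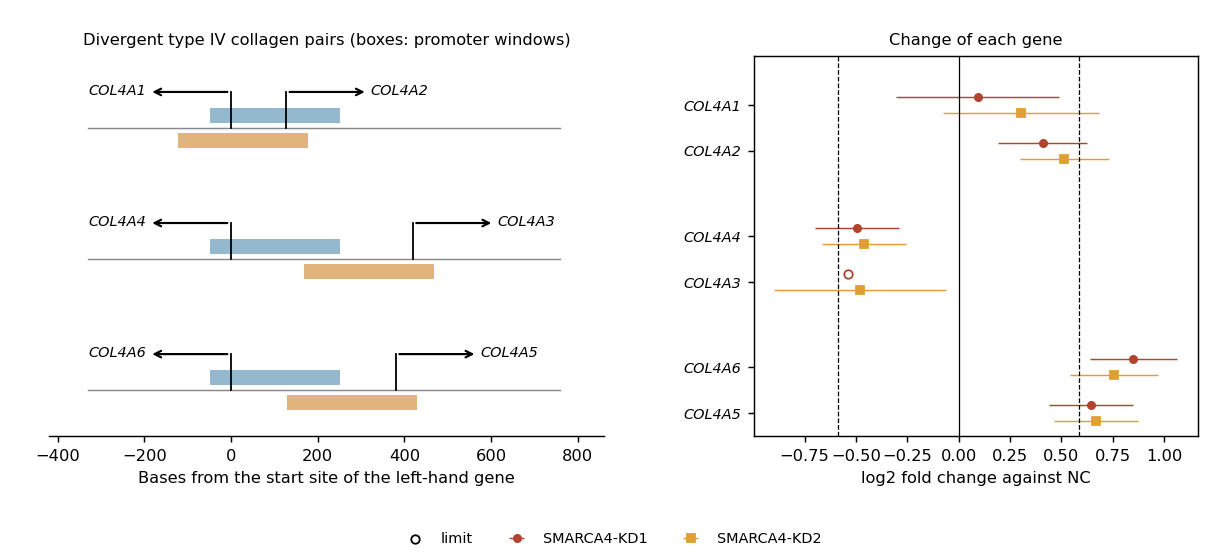
Left, the 3 divergent type IV collagen pairs, with arrows at the start sites pointing along each gene and boxes for its promoter window, in bases from the start site of the left-hand gene. Right, log2 fold change of each gene in SMARCA4-KD1 (circles) and SMARCA4-KD2 (squares) against NC, with bars for the error of the extraction software, dashed lines at 1.5-fold and an open symbol for a limit; the COL4A6 and COL4A5 pair lies to the right of 0 and the COL4A4 and COL4A3 pair to the left.

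Over all 44 genes, RefSeq windows were found for 32, with 44 windows. The GC box stood in 24 of these windows, or 54.6%, beside 44.95% of all 35116 windows. The CCAAT box stood in 31.8% beside 34.6%, the TATA box in 18.2% beside 11.5%, and the AP-1 motif in 2.27%, which is 1 window, beside 7.71%. A match is a description of the letters and no evidence of a factor at the site, and a GC box and a CCAAT box can share bases at their ends, as can a TATA box and its own reverse.

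Of the fibrillar collagens, COL5A2, a minor chain that is built into type I fibrils, was the only 1 of 5 past 1.5-fold, and in 1 knockdown. Its signal was 99.4, 118.0 and 63.8, and the log2 fold changes were 0.56 ± 0.23 and 0.86 ± 0.22. Under normexp these became 0.32 and 0.50. COL1A1, the main chain of type I collagen, was at 0.37 ± 0.20 and 0.12 ± 0.20. COL5A1 was at 0.40 ± 0.40 and 0.12 ± 0.42 and close to background. COL11A2 was at 0.14 ± 0.21 and -0.08 ± 0.21, and COL27A1 at -0.01 ± 0.20 and 0.02 ± 0.20. The last 3 were within the error in both knockdowns.

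Among the FACIT collagens, COL16A1 lay below NC in both knockdowns and COL9A3 above it. COL16A1, whose product links fibrils and integrins, had signals of 176.0, 182.9 and 259.8. Its log2 fold changes were -0.65 ± 0.21 and -0.54 ± 0.21, past 1.5-fold in the first knockdown alone. COL9A3 had signals of 7147, 6845 and 5017, with log2 fold changes of 0.42 ± 0.20 in both knockdowns. Its partner chain COL9A2 was at -0.00 ± 0.25 and -0.22 ± 0.25. COL9A1, the remaining type IX chain, was well above background in SMARCA4-KD2 alone, at 35.99 beside 3.4 in SMARCA4-KD1 and 4.4 in NC, and so was at least 1.99-fold higher there than in NC. Its other probe, with signals of 13.6, 15.99 and 10.2, was not above background on any array. COL9A1 was also the only collagen gene of the 26 at least 1.5-fold apart between the knockdown arrays themselves, against 6.52% of all genes.

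COL12A1, which binds type I fibrils, was the FACIT gene whose probes disagreed. The brighter probe had signals of 5175, 4198 and 4466 and log2 fold changes of 0.13 ± 0.20 and -0.12 ± 0.20. The other, at chr6:75822928-75822987 on hg19, had signals of 301.3, 224.1 and 366.6 and changes of -0.37 ± 0.21 and -0.74 ± 0.21. COL14A1 was at 0.48 ± 0.34 and 0.40 ± 0.34, and COL20A1 at 0.04 ± 0.43 and 0.25 ± 0.41, both close to background. Of the beaded filament collagens, COL6A1 had signals of 8273, 8141 and 6321 and log2 fold changes of 0.30 ± 0.20 and 0.33 ± 0.20, and COL6A2 was at 0.22 ± 0.21 and 0.18 ± 0.21. COL10A1, a network-forming collagen of growth plate cartilage, was at 0.16 ± 0.24 and 0.03 ± 0.24, and COL28A1 at -0.03 ± 0.35 and -0.30 ± 0.37.

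In all, 34 of the 64 collagen probes were above background on at least 1 array, and 6 genes had more than 1 such probe. For COL16A1 the second probe was lower as well, at -0.45 ± 0.21 and -0.22 ± 0.21, so the mean over its probes was short of 1.5-fold. For COL6A2 it was at 0.09 and 0.01, and the 3 probes of COL11A2 lay between -0.08 and 0.23. COL5A1 and COL27A1 each had a probe above background in NC alone. The COL5A1 probe had signals of 4.8, 9.4 and 20.4 and the COL27A1 probe 14.2, 16.4 and 23.2.

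**Figure D4:**
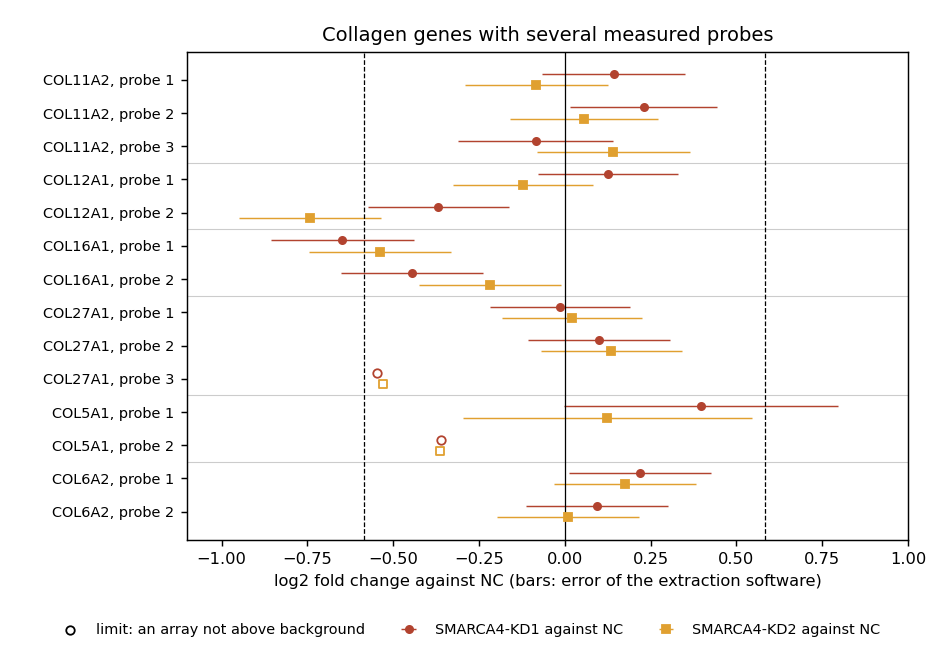
Log2 fold change against NC of each probe above background on at least 1 array, for the 6 collagen genes with more than 1 such probe; probe 1 stands for the gene elsewhere, bars are the error of the extraction software, dashed lines mark 1.5-fold and open symbols are limits. For COL12A1, probe 1 lies at 0.13 and -0.12 and probe 2 at -0.37 and -0.74.

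The collagen genes differed little between the knockdown arrays. Over the 23 on all arrays, the difference SMARCA4-KD1 minus SMARCA4-KD2 ran from -0.30 (COL5A2) to 0.27 (COL5A1) on the log2 scale, with a median size of 0.11. In 12 of them SMARCA4-KD1 was the higher and in 11 SMARCA4-KD2.

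Both knockdowns together against NC were tested with limma across all 22620 genes. The fit treats the knockdowns as replicates and has 1 residual degree of freedom. The t-test below pools them in the same way. The study's methods name Student's t-test in general and do not say which test was used for the arrays. COL17A1 was at the floor on both knockdown arrays, so its small spread, and with it its place in both tests, was set by the floor. No collagen gene, and 0% of all genes, had a Benjamini-Hochberg adjusted p under 0.05. At an unadjusted p under 0.05 there were 9 collagen genes of 26 (COL4A4, COL4A5, COL4A6, COL6A1, COL7A1, COL9A3, COL13A1, COL16A1 and COL17A1), against 30.5% of all genes. The t-test of the study's methods on the same values gave 0 after adjustment, as over all genes, and 6 at an unadjusted p under 0.05, against 14.2% of all genes. By limma, COL13A1 had a mean log2 fold change of -1.31 with a standard error of 0.08. COL4A5 was at 0.66 (SE 0.07) and COL4A6 at 0.80 (SE 0.13). These standard errors rest on the difference between the knockdown arrays, drawn toward that of other genes. They hold no spread between NC arrays, slides or replicate cultures, and are smaller than the software's errors for the same genes. The count depended on the genes fitted: over the genes above background on all arrays limma called 7 of 23 collagen genes, when 26.5% of those genes were called. With quantile normalization it called COL13A1, COL4A5 and COL4A6, when 12.2% of all genes were called.

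Genes that modify and fold collagen chains were nearly all measured. Of 20 listed, 18 were, and 4 were at least 1.5-fold lower and 1 higher in both knockdowns, against 8.02% and 6.35% of all genes. The median log2 fold changes of the list were -0.08 and 0.05. PLOD2, the lysyl hydroxylase of the collagen telopeptides, had signals of 2054, 2077 and 4108, log2 fold changes of -1.09 and -1.02. P3H2, a prolyl 3-hydroxylase, was at -1.23 and -1.12 with signals of 197.1, 205.2 and 435.1. P3H3, another of that family that the array names LEPREL2, was at -0.86 and -0.62. CRTAP, a partner of the prolyl 3-hydroxylases, was at -1.02 and -0.73, with a signal of 18.1 in SMARCA4-KD1 that lay near the background limit. FKBP14, a prolyl isomerase of the endoplasmic reticulum, was higher at 1.55 and 1.32, with signals of 1397, 1148 and 450.6.

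Of 16 genes of export, propeptide removal and crosslinking, 13 were measured, with medians of -0.34 and -0.15. Of these, 4 were at least 1.5-fold lower and 0 higher in both knockdowns, against 8.02% and 6.35% of all genes. The lysyl oxidases LOXL2 and LOXL4, which crosslink collagen, were among the lower ones. LOXL2 had signals of 1535, 1889 and 3667 and log2 fold changes of -1.34 and -0.99, and LOXL4 had 78.2, 79.6 and 174.2 and changes of -1.24 and -1.16. PCOLCE2, an enhancer of C-propeptide removal, was at -0.64 and -0.67. LOX itself was not above background on any array. The fourth, MIA2, was above background in NC alone, so its values are limits and it passed the filter through NC, which favours lower values in the knockdowns.

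Of 10 collagen receptors 8 were measured, with 2 lower and 0 higher in both and medians of -0.34 and -0.25. They were ITGA10, an integrin chain, at -0.81 and -0.80, and MRC2, an endocytic receptor for collagen, at -0.83 and -0.77 with signals of 2160, 2167 and 3621. Of 7 collagen-degrading proteases 3 were measured, and the lysosomal cathepsin CTSK was lower in both, at -0.78 and -0.77. MMP1, MMP2, MMP8 and MMP13 were on no array. Of 15 partners in the basement membrane 13 were measured, with medians of -0.21 and 0.07, and 1 was lower in both. This was LAMA3, a chain of laminin-332, with signals of 191.1, 215.6 and 503.5 and log2 fold changes of -1.48 and -1.26. These lists were chosen with earlier results of these data known. Of all genes, 8.02% were lower and 6.35% higher in both knockdowns, and nothing is drawn from the counts about the lists as such.

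**Figure D5:**
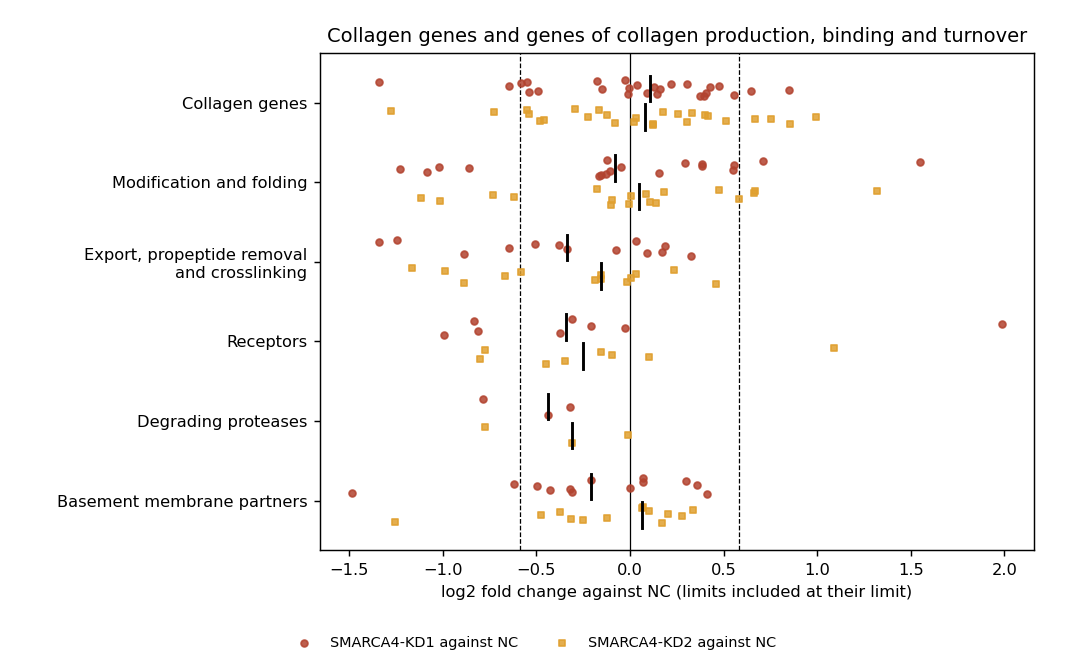
Log2 fold change against NC of every measured member of the collagen genes and of 5 lists of genes that modify, export, bind, degrade or accompany collagen, in SMARCA4-KD1 (circles) and SMARCA4-KD2 (squares), with a black bar at each median and dashed lines at 1.5-fold. The collagen genes lie on both sides of 0, and the list of export, propeptide removal and crosslinking has members past 1.5-fold on the lower side alone.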

How the data were processed

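Total RNA of HCT116 cells was labelled with Cy3 and hybridised to Agilent SurePrint G3 v3 arrays, 1 per condition. The authors extracted the deposited scanner files with Agilent Feature Extraction 10.7.1.1 (per the labels), and each file holds the intensity of 62976 spots with background subtracted and no scaling between arrays. Other deposited columns, 0 or 1 flags and the software's errors, were used as given. A deposited series-level table holds the same processed intensity: of 57871 probes with 1 spot, 1 differed by more than 0.1%, and 0 of 63 collagen probes did. The medians of its columns were 12.8, 13.1 and 12.2, so it is linear and not centred.

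Control spots and those with an outlier flag were not used, and where a probe had several spots their log2 values were averaged. The processed signal was put on the log2 scale and each array's 75th percentile taken off (signals of 236.8, 228.2 and 223.2 for SMARCA4-KD1, SMARCA4-KD2 and NC). Where a spot was too dim to be well above background, its value was raised to the dimmest level that passed on its array, and a fold against it is a limit. A probe had to be well above background on 1 array or more (46.8%, 47.3% and 45.7% passed on each), and the brightest stood for its gene. No sample has a second array, and their number limits the precision. Each knockdown was set against NC at 1.5-fold with no test, and both against NC with limma 3.58.1 (R 4.3.3) with an intensity trend, tested first on simulated data. Other steps used Python 3.11.15, numpy 2.4.6, pandas 2.3.3, scipy 1.17.1 and matplotlib 3.10.9.

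The members, the gene lists and the rule for named genes were chosen with earlier results of these data known. Every collagen gene is named, those past 1.5-fold in both knockdowns in full, and of each other list the members past 1.5-fold in the same direction in both and above background on all arrays, at most 6 a list. Promoter windows are from RefSeq on GRCh38.p14, and probe positions are the hg19 positions of the array files. The sequences of the siRNAs are not reported here.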

Additional observations from a re-analysis of the deposited data

How the results depend on the processing

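COL13A1 was at least 1.5-fold lower in both knockdowns under all settings tried, between -1.40 and -1.28 in SMARCA4-KD1 and between -1.32 and -1.24 in SMARCA4-KD2. At 2-fold in place of 1.5-fold 1 collagen gene was lower in SMARCA4-KD1 and 1 in SMARCA4-KD2, COL13A1 in both, and 0 were higher in SMARCA4-KD1, in SMARCA4-KD2 or in both. With the 75th percentile taken over the probes above background on all arrays, 5 were lower in SMARCA4-KD1 and 3 in both, COL7A1 and COL17A1 joining COL13A1. With normexp 1 was higher in SMARCA4-KD1 (COL4A6), 1 lower (COL13A1) and 1 higher (COL4A5) in SMARCA4-KD2, and 0 higher in both. Its offset of 50 by itself draws the folds of dim probes toward 0. With no floor 4 were lower in SMARCA4-KD1 and 2 in both, since COL17A1 was then at -2.03 and -1.54 and COL4A3 in SMARCA4-KD1 at -1.06. With a gene's probes averaged 1 was lower in SMARCA4-KD1. With the values of the series-level table as the source, 6 were lower in SMARCA4-KD1 and 3 in both, since the 1 probe that differs there, of EGFR, is flagged above background at a low listed signal (7.12 beside 98.8 in the scanner file of SMARCA4-KD1) and so lowers the floor. Without that probe, a setting added after seeing the data, 3 were lower in SMARCA4-KD1 and 2 in both (COL13A1 and COL7A1). With no filter the collagen medians were -0.15 in both knockdowns, as were those of all genes (-0.15 and -0.15). This value is the difference between the floors of a knockdown array and NC. COL9A1 in SMARCA4-KD2 turned to the same -0.15, since its other probe, not above background, then stood for it. That probe had signals of 15.99 in SMARCA4-KD2 and 10.2 in NC, so the sign came from the floors. COL12A1 was at -0.12 and -0.43 with its probes averaged.

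limma called 7 collagen genes at an adjusted p under 0.05 over the genes above background on all arrays, 6 with normexp (when 16.6% of all genes were called) and 3 with quantile normalization. It called 0 without the intensity trend. The methods' t-test called 0. Collagen genes detected numbered 16 to 19 where all probes of a gene had to be above background and 33 with the flag for a positive and significant signal. Over the alternatives of single genes' fold changes, 446 stayed within the error of the software and 15 moved beyond it. The settings that change only the filter, the floor or the averaging of probes leave many of these values the same by construction. Those of COL13A1 stayed at -1.34 and -1.27 under each of them. The count of 446 is therefore no measure of stability. In 15 of the 462 the sign differed from the reported one. In 1 of these, COL9A1 above, the reported value was past 1.5-fold and the other sign came from the floors. In the others the size of the reported value was 0.13 or less. No paired analysis was possible because each group has 1 array, for which reason no replicate could be left out either. Genes near the background, such as COL4A1, COL4A3, COL5A1, COL14A1, COL20A1 and COL28A1, have errors of 0.34 and more on the log2 scale, and changes under that size were not detectable there.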

Other observations

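Probes whose names begin like a collagen's and that are no collagen chain were read the same way. The antisense genes COL4A2-AS1, COL4A2-AS2, COL5A1-AS1, COL18A1-AS1 and COL18A1-AS2 and the pseudogenes COL6A4P1 and COL6A4P2 were not above background on any array. COL4A3BP, which encodes a ceramide transfer protein, was on all arrays, with log2 fold changes of 0.05 ± 0.20 and 0.03 ± 0.20 (SMARCA4-KD1 and SMARCA4-KD2 against NC) by 1 probe and of 0.09 ± 0.20 and 0.10 ± 0.20 by the other.

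Among the collagen receptors above background on some array, DDR2, a receptor tyrosine kinase for fibrillar collagen, was above background in SMARCA4-KD1 alone, with a signal of 74.2 beside 4.9 in SMARCA4-KD2 and 8.3 in NC. LAIR1, an inhibitory receptor of immune cells, had signals of 50.04, 127.3 and 58.4 for SMARCA4-KD1, SMARCA4-KD2 and NC, so that SMARCA4-KD2 stood apart from both other arrays. Both were chosen after their values were seen.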
